A study of Homo sapiens with 32 samples.

Results

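The 36 genes described here make, sense and export cholesterol or make fatty acids, and they were measured by poly-A RNA-seq in 32 libraries of 2 human cell lines. A row of the deposited count matrix was taken as a member if its gene symbol was on a fixed list of 36 symbols. All 36 symbols were found, each on 1 row, among 60332 rows. By role, 7 members belong to the mevalonate pathway, 11 convert farnesyl units through squalene to cholesterol, 6 sense or carry sterols, 9 make or remodel fatty acids and 3 are targets of the liver X receptors (LXR).

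MCF10A, an untransformed breast epithelial line, gave 26 libraries, and hTERT RPE-1, a retinal pigment epithelial line immortalised with telomerase, gave 6, with 2 libraries in each of 16 groups. In the first MCF10A experiment, wild-type (WT) cells were untreated, or received 10 Gy of ionising radiation with DMSO and were collected after 3 or 5 days, or received 10 Gy with CDK1i (a CDK1 inhibitor) for 5 days. Its cGAS KO, STING KO and XRCC4 KO cells received 10 Gy and were collected after 5 days. The labels name DMSO for the irradiated WT cells and not for these knockouts. In the second, WT, p53 KO, XRCC4 KO and XRCC4 p53 DKO cells (both genes knocked out) all received 10 Gy and were collected after 3 days, and the XRCC4 KO and DKO cells were also irradiated with ATRi (an inhibitor of the checkpoint kinase ATR). In the RPE-1 experiment, WT, WT cGAS and p53 KO cells all received 10 Gy with ATRi and were collected after 3 days. Both drugs were added 1 h ahead of the radiation and stayed on the cells. Only the untreated MCF10A WT cells were not irradiated, so no knockout was measured without radiation. Both media contained serum. Knockouts were made with Cas9 and grown from single cells, and the labels name no clone, so each knockout comparison is 1 line against another. cGAS is a sensor of cytosolic DNA that signals through STING, and XRCC4 is a factor of non-homologous end joining, a repair route for broken DNA.

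Cells make cholesterol from acetyl-CoA through mevalonate, farnesyl diphosphate, squalene and lanosterol. When sterols in the endoplasmic reticulum are low, SCAP escorts the precursors of SREBP1 and SREBP2 (the products of SREBF1 and SREBF2) to the Golgi, where they are cleaved into transcription factors that raise most genes of this pathway and of fatty acid synthesis. When sterols are plentiful, INSIG1 and INSIG2 hold SCAP back, and oxysterols activate LXR, which raises the cholesterol exporters ABCA1 and ABCG1 and the ubiquitin ligase MYLIP, which marks lipoprotein receptors for degradation.

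Promoter windows from 250 bases before to 50 bases after a start site (RefSeq, GRCh38.p14) were found for 31 of the 36 members, in 44 windows. No window was found for FASN, FDFT1, ACAT2, ABCG1 or SQLE. Short motifs known from SREBP-responsive promoters were searched on both strands. The sterol regulatory element core (TCACNCCAC) lay in 1 of 31 members, SREBF2, which is 2.27% of the members' windows against 1.12% of all 34943 windows. The CCAAT box (CCAAT, bound by NF-Y) lay in 22 members, in 59.1% of their windows against 34.6% of all. The GC box (GGGCGG, bound by Sp1) lay in 30 members, in 88.6% of their windows against 44.9% of all. A match is a description of letters and not a binding site. The 160 bases before the start site are shown for 5 members on which the results below turn, read 5′ to 3′ on the gene's strand. Capitals mark sterol regulatory element core and CCAAT box letters, and a CCAAT box on the opposite strand reads ATTGG. SREBF2 holds the only core, MSMO1 and DHCR7 are late enzymes that fell with p53 loss, MYLIP is an LXR target that rose in the same RPE-1 cells, and ABCA1 is an LXR target with neither motif in this stretch.
SREBF2 (chr22:41832945-41833104, plus strand): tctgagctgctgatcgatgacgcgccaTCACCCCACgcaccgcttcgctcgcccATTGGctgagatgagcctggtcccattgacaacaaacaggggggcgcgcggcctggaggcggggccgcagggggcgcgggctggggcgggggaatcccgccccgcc
MSMO1 (chr4:165327509-165327668, plus strand): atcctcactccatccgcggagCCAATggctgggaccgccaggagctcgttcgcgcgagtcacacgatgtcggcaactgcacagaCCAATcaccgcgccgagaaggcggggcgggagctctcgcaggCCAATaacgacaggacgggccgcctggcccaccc
DHCR7 (chr11:71448394-71448553, minus strand): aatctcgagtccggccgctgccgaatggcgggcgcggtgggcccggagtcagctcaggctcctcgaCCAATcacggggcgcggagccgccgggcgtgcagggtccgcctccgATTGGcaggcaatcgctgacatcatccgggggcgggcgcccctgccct
MYLIP (chr6:16128926-16129085, plus strand): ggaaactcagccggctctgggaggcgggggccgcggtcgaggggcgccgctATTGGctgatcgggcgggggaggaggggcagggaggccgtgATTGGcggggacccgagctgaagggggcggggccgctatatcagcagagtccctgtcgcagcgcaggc
ABCA1 (chr9:104928156-104928315, minus strand): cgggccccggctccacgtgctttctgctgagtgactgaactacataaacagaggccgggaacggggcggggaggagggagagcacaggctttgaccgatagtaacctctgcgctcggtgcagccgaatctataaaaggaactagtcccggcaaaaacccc

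Libraries held 5590061 to 18585999 estimated counts. KRT5 and KRT14, keratins of basal breast epithelium, were present in all MCF10A libraries (KRT5 at 1730 to 8870 FPKM and KRT14 at 38.9 to 3910 FPKM). In RPE-1, the retinal pigment genes RPE65 and TYR were at 0 in 4 and 5 of 6 libraries. BEST1, PMEL and RLBP1 were low, with highest values of 0.898, 1.41 and 0.136 FPKM. OTX2 (8.24 to 13.4 FPKM) and MITF (5.59 to 12.2 FPKM) were present. MB21D1 (cGAS) had 15 to 20 counts in cGAS KO against 251 to 254 in WT cells at 5 days, and TMEM173 (STING) had 103 to 127 in STING KO against 894 to 1214. XRCC4 counts were 66 to 88 in XRCC4 KO and 125 to 140 in WT cells at 5 days, but 119 to 134 and 102 to 122 at 3 days, and a small edit need not lower the mRNA. As a check of p53 loss, the mean of 15 known p53 target genes in MCF10A was 6.8 and 6.81 log2 CPM in WT and 4.94 and 4.93 in p53 KO, and in RPE-1 it was 6.42 and 6.39 in WT and 4.18 and 4.29 in p53 KO. In RPE-1, MB21D1 had 2 and 100 counts in WT, 6158 to 6199 in WT cGAS and 6 to 8 in p53 KO.

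CPM below are TMM-scaled CPM, the count of a gene relative to its library's total, changes are log2 fold changes ± SE, and a member is said to rise or fall where the Benjamini-Hochberg adjusted p over all genes tested was under 0.05 in edgeR's quasi-likelihood test. The labels do not say whether a group's 2 libraries are separate cultures, so p-values measure only the spread between these libraries, which may be technical. In bulk RNA, a change in RNA per cell and a change in the mix of cells cannot be told apart. Intervals deposited for several members, including SREBF1, STARD4, ACAT2 and TM7SF2, reach past the gene into neighbours, and the strand setting of the counting is not known here. FDPS and HSD17B7 have near-identical pseudogenes. Values of these genes are therefore uncertain where reads could be shared.

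On the length-scaled FPKM, the most abundant member in MCF10A was FDPS, which makes farnesyl diphosphate (median 564, lowest 172 and highest 949 over 26 libraries). FDFT1, the squalene synthase, followed at 264 (151 to 475), and then ACLY, which makes cytosolic acetyl-CoA, at 184 (66.2 to 343). The ranges of neighbours in this order overlapped. The LXR targets were the 3 lowest members, with ABCG1 at 6.07, MYLIP at 1.47 and ABCA1 at 0.146. They also spanned the widest range, with ABCG1 37 times and ABCA1 30.8 times as high in the highest as in the lowest library. The ABCA1 values, 0.016 to 0.493 FPKM, were near the floor, so its ratio is uncertain. MYLIP spanned 10.8 times, close to the mevalonate gene HMGCS1 at 10.6, whereas the phosphomevalonate kinase gene PMVK spanned 1.56 times. In RPE-1, FDFT1 (231), FDPS (203) and ACLY (182) again led, SREBF1 was lower (31, against 154 in MCF10A), and ABCA1 was higher (7.08, against 0.146). ABCG1 was between 0 and 0.02 FPKM in RPE-1 and was too low there to test, so 35 members were tested in that line and 36 in MCF10A.

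**Figure D1:**
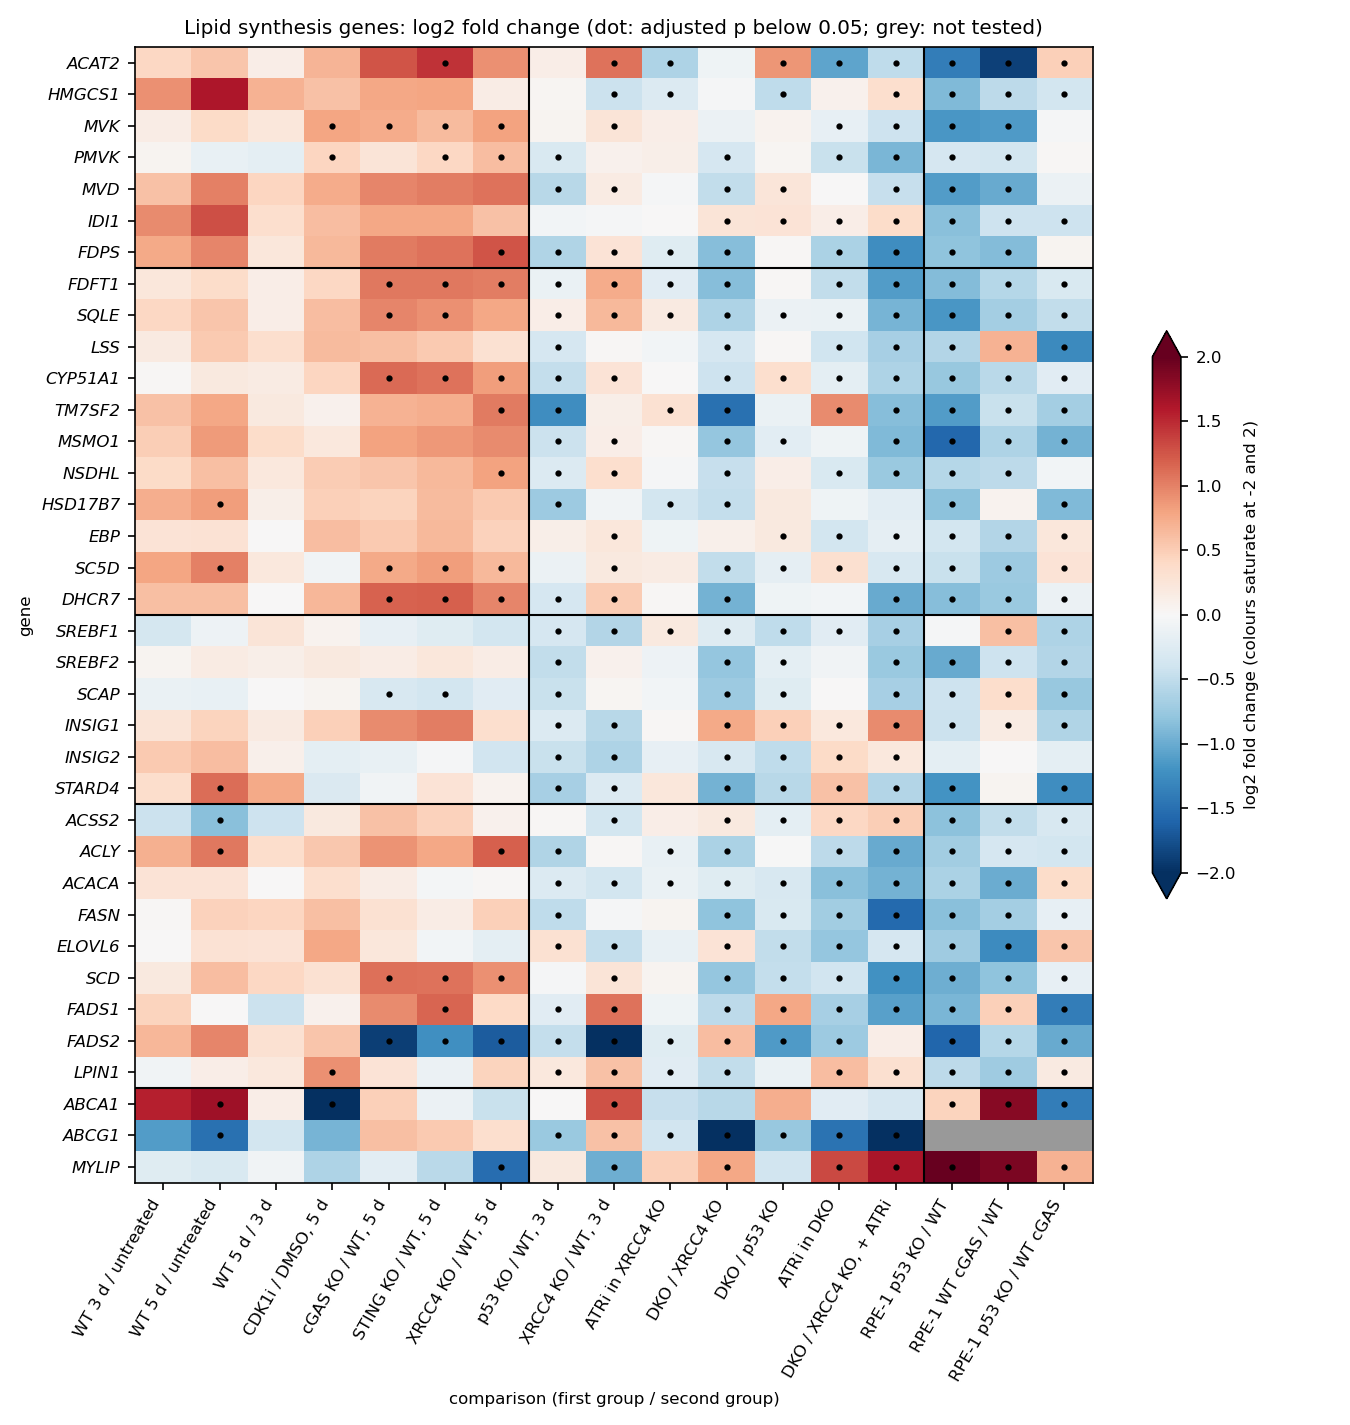
Log2 fold change (edgeR, colour scale) of the 36 members, in rows ordered by role, in 17 comparisons of 2 groups each, in columns; a dot marks adjusted p under 0.05 and grey marks ABCG1 in RPE-1, which was not tested. Columns of p53 loss hold mostly lower values, and the 5-day columns of the first MCF10A experiment hold mostly higher ones.

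Most of these genes were lower in irradiated MCF10A that had lost p53, from cytosolic acetyl-CoA supply to the last steps of cholesterol synthesis. In p53 KO against WT cells, 23 of 36 members (63.9%) fell and 3 (8.33%) rose, while 27% of all genes fell and 25.9% rose. The median member change was -0.29. By role, 8 of 11 squalene-to-cholesterol genes, 6 of 6 sterol-sensing or carrier genes, 5 of 9 fatty acid genes and 3 of 7 mevalonate genes fell. limma on log2(FPKM + 1) gave 14 lower and 3 higher, and 17 and 0 after median centring. These fits called 38.1% and 35.5% of all genes.

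TM7SF2, a sterol reductase late in cholesterol synthesis (ENSG00000149809), measured 11.4 and 12.8 CPM in WT and 5.26 and 4.93 in p53 KO cells. Its fall of -1.25 ± 0.13 was the largest of the members (edgeR adjusted p = 1.22e-08). ACLY (ENSG00000131473, hg19 chr17:40023161-40086795) measured 734 and 754 CPM in WT and 495 and 485 in p53 KO cells, a change of -0.6 ± 0.04 (edgeR adjusted p = 2.15e-13). Both libraries of p53 KO lay below both of WT for each of these genes. FDPS changed by the same -0.6 ± 0.04, from 593 and 600 to 405 and 382 CPM. STARD4, a carrier of cholesterol between membranes, fell from 73.2 and 69.9 to 43.7 and 47.4 CPM (-0.66 ± 0.09), and HSD17B7, a sterol ketoreductase, changed by -0.72 ± 0.1. The exporter ABCG1 fell by 0.74 ± 0.11.

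The transcription factor genes fell as well on counts. SREBF2 (ENSG00000198911, hg19 chr22:42227219-42303312) measured 280 and 289 CPM in WT and 211 and 194 in p53 KO cells (-0.49 ± 0.05, edgeR adjusted p = 5.2e-08), and SREBF1 measured 179 and 180 against 148 and 135 (-0.34 ± 0.05). Neither gene's groups overlapped in CPM. On FPKM, SREBF2 measured 81.4 and 83.8 against 71.6 and 58.4, but SREBF1 measured 153 and 171 against 163 and 158, so its groups overlapped. INSIG1, which is itself a target of SREBPs, fell by 0.28 ± 0.05. The 3 members that rose were ELOVL6, a fatty acid elongase (0.31 ± 0.05), LPIN1, a phosphatidate phosphatase (0.21 ± 0.06), and SQLE, the squalene epoxidase (0.13 ± 0.04). LPIN1 lost its call without WT replicate 1, and its direction turned to -0.12 on centred FPKM. SQLE lost its call without WT replicate 1 or p53 KO replicate 2. SCD, the stearoyl-CoA desaturase, measured 791 and 808 against 775 and 787 CPM and did not pass the test (-0.03).

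In cells without XRCC4, most members were again lower where p53 was lost. In DKO against XRCC4 KO cells, 25 of 36 fell (69.4%) and 6 rose (16.7%), beside 32.7% and 32.2% of all genes. The median member change was -0.48, and 10 of 11 squalene-to-cholesterol genes fell. limma on log2(FPKM + 1) gave 14 lower and 7 higher, and 21 and 3 after centring.

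FDFT1 measured 527 and 541 CPM in XRCC4 KO and 299 and 296 in DKO cells, a change of -0.85 ± 0.04 (edgeR adjusted p = 2.45e-16). DHCR7, the last reductase of the pathway (ENSG00000172893, hg19 chr11:71139239-71163914), measured 267 and 264 against 141 and 137 CPM (-0.94 ± 0.05). SCD (ENSG00000099194, hg19 chr10:102106881-102124591) measured 948 and 954 against 574 and 544 CPM (-0.77 ± 0.04, edgeR adjusted p = 5.74e-16). For each gene, both DKO libraries were below both XRCC4 KO libraries. ABCG1 showed the largest fall, from 23.9 and 24.7 to 6.22 and 5.24 CPM (-2.08 ± 0.12), and TM7SF2 the next (-1.49 ± 0.13).

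Not every sensor followed. INSIG1 (ENSG00000186480, hg19 chr7:155089486-155101945) measured 44.6 and 43.3 CPM in XRCC4 KO and 73.7 and 73.7 in DKO cells, a rise of 0.75 ± 0.06 (edgeR adjusted p = 7.55e-12), while SREBF2 fell from 303 and 303 to 177 and 178 CPM (-0.77 ± 0.05). SREBF1 changed by -0.26 ± 0.05, but by 0.17 on log2(FPKM + 1). MYLIP rose by 0.77 ± 0.23 (not called without DKO replicate 2, at 0.58), FADS2 by 0.62 ± 0.07, and IDI1, the isopentenyl diphosphate isomerase, by 0.25 ± 0.06. ELOVL6 rose by 0.28 ± 0.06, but measured -0.03 on centred FPKM.

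With ATRi as well, DKO against XRCC4 KO cells showed a median member change of -0.64. Of 36 members, 26 fell (72.2%) and 7 rose (19.4%), beside 36.1% and 35.7% of all genes. limma on log2(FPKM + 1) gave 18 lower and 12 higher, and 24 and 7 after centring. FASN, the fatty acid synthase (ENSG00000169710, hg19 chr17:80036209-80056208), measured 915 and 857 CPM in XRCC4 KO with ATRi and 308 and 295 in DKO with ATRi, a change of -1.56 ± 0.05 (edgeR adjusted p = 3.72e-18). FDPS measured 632 and 590 against 256 and 260 CPM (-1.24 ± 0.04), and SCD 989 and 994 against 422 and 433 (-1.21 ± 0.04). These DKO libraries held less than any other library of the experiment for FASN, FDPS and SCD. FDFT1 changed by -1.11 ± 0.04, SREBF2 by -0.74 ± 0.05 and SREBF1 by -0.67 ± 0.05. INSIG1 again went the other way, from 43.8 and 45.1 to 85.2 and 85.6 CPM (0.94 ± 0.05), and HMGCS1, the HMG-CoA synthase, rose by 0.33 ± 0.05.

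In RPE-1, nearly all tested members were lower where p53 was lost. In p53 KO against WT cells, both irradiated with ATRi, 31 of 35 members fell (88.6%) and 2 rose (5.71%), beside 32.5% and 34.2% of all genes, and the median change was -0.82. All 7 mevalonate genes, all 11 squalene-to-cholesterol genes and all 9 fatty acid genes fell, with 4 of the 6 sensing genes. On log2(FPKM + 1) the median member change was -0.47, while that of all genes was 0.26. FPKM of some members that fell on counts, among them LSS, ACACA and INSIG1, overlapped between the groups.

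MSMO1, a sterol C4-methyl oxidase (ENSG00000052802, hg19 chr4:166248775-166264312), measured 341 and 347 CPM in WT and 121 and 111 in p53 KO cells (-1.57 ± 0.09, edgeR adjusted p = 2.19e-06). FADS2, the delta-6 desaturase of polyunsaturated fatty acids, measured 423 and 422 against 143 and 140 CPM (-1.58 ± 0.04, edgeR adjusted p = 5.1e-16). ACAT2, which joins acetyl-CoA units at the entry to the pathway, measured 145 and 139 against 57.8 and 50.9 CPM (-1.39 ± 0.06). The p53 KO libraries were below the WT libraries throughout. SQLE fell from 164 and 173 to 73.1 and 76.3 CPM (-1.17 ± 0.05), STARD4 from 124 and 122 to 58.5 and 49.5 (-1.19 ± 0.07), and SCD from 1050 and 1080 to 552 and 529 (-0.98 ± 0.04). SREBF2 measured 313 and 326 against 160 and 157 CPM (-1.01 ± 0.04), whereas SREBF1 measured 33.9 and 36.2 against 34.1 and 34.8 CPM and did not pass the test (-0.03, edgeR adjusted p = 0.749). INSIG1 fell by 0.43 ± 0.06.

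The 3 comparisons of p53 loss that share no library (p53 KO against WT and DKO with ATRi against XRCC4 KO with ATRi in MCF10A, and p53 KO against WT in RPE-1) can be set side by side. Of the 35 members tested in all 3, 17 fell in each, which is 77.3% of the 22, 68% of the 25 and 54.8% of the 31 that fell in these comparisons. Over the 14322 genes tested in all 3, 13% fell in each. The 17 were PMVK, MVD and FDPS of the mevalonate pathway, FDFT1, LSS, CYP51A1, TM7SF2, MSMO1, NSDHL and DHCR7 of the later steps, SREBF2, SCAP and STARD4 among the sensors, and ACLY, ACACA, FASN and FADS1 of fatty acid synthesis. No member rose in all 3, against 11% of all genes. INSIG1, by contrast, fell in both comparisons with WT cells and rose in the DKO comparison. These calls rest on counts, and some of the 17 did not fall throughout on FPKM. MVD measured 55.7 and 55.3 FPKM in XRCC4 KO with ATRi and 71.9 and 63.8 in DKO with ATRi. FDFT1 measured 263 and 258 in MCF10A WT and 259 and 279 in p53 KO cells. LSS and ACACA overlapped in RPE-1. FDPS and SREBF2, for example, were lower in all 3 on FPKM too.

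**Figure D2:**
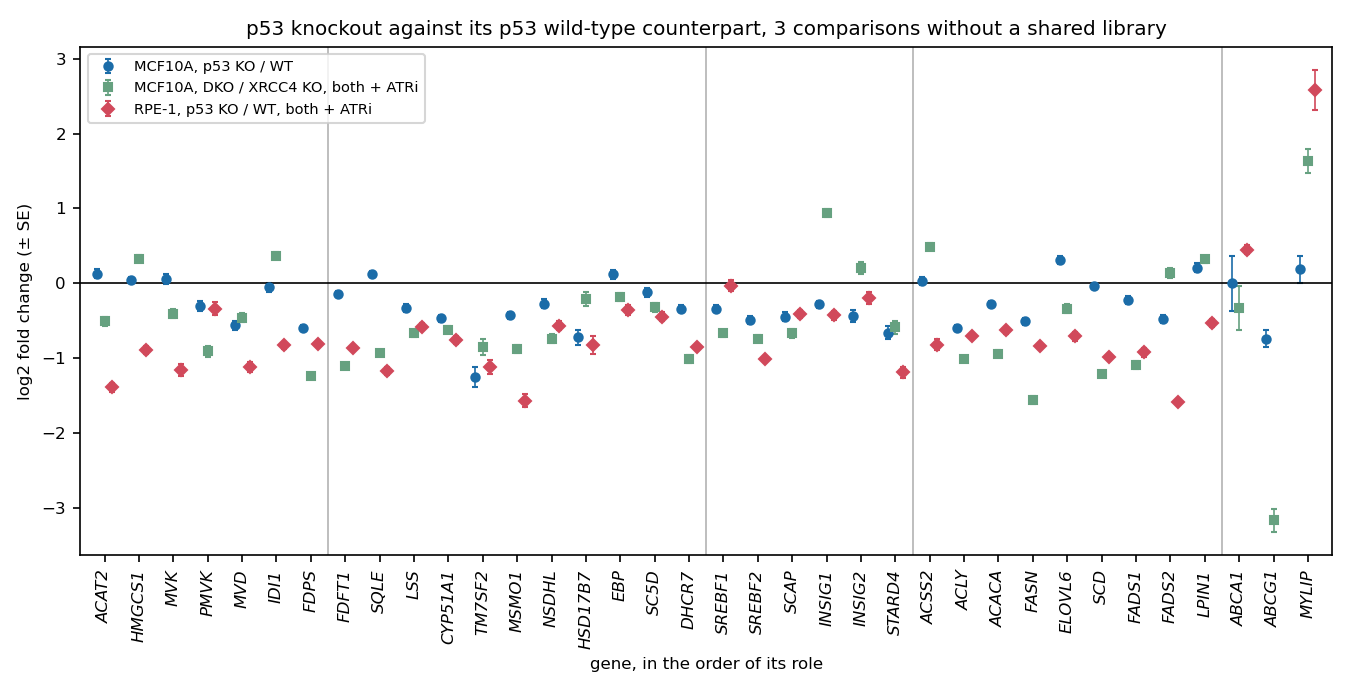
Log2 fold change with SE (y axis) of each member (x axis) in the 3 comparisons of p53 loss that share no library. Points of FDPS, FDFT1 and SREBF2 lie below 0 in all 3, while INSIG1 is at 0.94 in the DKO comparison with ATRi and at -0.28 and -0.43 in the others.

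Transcripts of dividing cells moved with p53 loss. The mean of 20 G2 and mitosis genes was 5.24 and 5.2 log2 CPM in MCF10A WT and 7.37 and 7.43 in p53 KO cells, 3.46 and 3.39 in XRCC4 KO and 6.61 and 6.61 in DKO cells with ATRi, and 4.01 and 3.95 in RPE-1 WT and 6.08 and 5.89 in p53 KO cells. The mean of 20 interferon-stimulated genes was 3.55 and 3.94 in MCF10A WT and 4.82 and 4.88 in p53 KO cells, and 3.37 and 3.7 in RPE-1 WT and 6.46 and 6.48 in p53 KO cells. Their part in the fall of the lipid genes was not tested.

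XRCC4 loss was measured in both MCF10A experiments with p53 present. On counts, most squalene-to-cholesterol genes were higher and FADS2 was lower in both. At 3 days after 10 Gy, 17 of 36 members rose (47.2%) and 10 fell (27.8%) in XRCC4 KO against WT cells, beside 28.6% and 27.5% of all genes. The later pathway led: 8 of 11 squalene-to-cholesterol genes rose and 0 fell, while 4 of 7 mevalonate genes rose and 1, HMGCS1, fell (218 and 212 to 161 and 158 CPM, -0.43 ± 0.05). limma on log2(FPKM + 1) gave 5 higher and 12 lower, and 14 and 8 after centring, and the median member change was 0.1 on counts and -0.05 on FPKM relative to the median of all genes.

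FDFT1 measured 318 and 322 CPM in WT and 527 and 541 in XRCC4 KO cells (0.74 ± 0.04, edgeR adjusted p = 8.44e-15). SQLE measured 239 and 242 against 381 and 373 CPM (0.65 ± 0.04), and ACAT2 42.9 and 42.2 against 91 and 89.8 (1.09 ± 0.06). The XRCC4 KO libraries were above both WT libraries for all 3 genes. SCD rose by 0.25 ± 0.04. ABCA1 rose from 1.11 and 1.17 to 2.1 and 3.51 CPM (1.28 ± 0.31), but was not called without XRCC4 KO replicate 2, at 0.88. Of the 6 sensing or carrier genes, 4 fell, among them INSIG2 at -0.62 ± 0.08, SREBF1 at -0.59 ± 0.05 (179 and 180 against 118 and 120 CPM) and INSIG1 at -0.56 ± 0.06. SREBF2 (280 and 289 against 303 and 303 CPM) and SCAP (97.6 and 101 against 102 and 102) did not pass the test. MYLIP fell from 4.15 and 3.75 to 2.1 and 1.9 CPM (-0.97 ± 0.22).

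At 5 days, 11 of 36 members rose (30.6%) and 2 fell (5.56%) in XRCC4 KO against WT cells, beside 12.4% and 12.4% of all genes. FDFT1 measured 294 and 275 CPM in WT and 570 and 581 in XRCC4 KO cells (1.02 ± 0.22, edgeR adjusted p = 0.00896), ACLY 495 and 481 against 1130 and 1110 (1.2 ± 0.34), and FDPS 406 and 337 against 886 and 880 (1.25 ± 0.39). All these XRCC4 KO libraries were above the WT libraries. The labels name DMSO for these WT cells and not for the knockout, so XRCC4 loss and DMSO cannot be told apart here. TM7SF2 (1.04 ± 0.25), DHCR7 (0.97 ± 0.28) and SCD (0.92 ± 0.29) rose as well. MYLIP fell from 3.78 and 4.09 to 1.47 and 1.25 CPM (-1.52 ± 0.26) and alone among the 8 members named here kept its call when any single library was left out. Without WT replicate 1, WT replicate 2, XRCC4 KO replicate 1 or XRCC4 KO replicate 2, the median member change was 0.59, 0.47, 0.49 and 0.44. Fewer members and a smaller share of all genes were called in each of these fits. limma on log2(FPKM + 1) gave 1 higher and 2 lower, beside 14.8% of all genes called, and 8 and 2 after centring.

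The 2 experiments share no library. MVK, FDPS, FDFT1, CYP51A1, NSDHL, SC5D, DHCR7 and SCD rose in both, 8 of 36 members, which is 72.7% of the 11 at 5 days and 47.1% of the 17 at 3 days. Over 14969 genes, 10.6% rose in both. FADS2 and MYLIP fell in both, against 9.86% of genes. These calls rest on counts. On FPKM at 3 days, WT and XRCC4 KO overlapped for SC5D (77.4 and 71.8 against 70 and 85.2) and CYP51A1 (69.6 and 76 against 77.9 and 74.9). SCD was nearly level (143 and 146 against 147 and 147), while FDFT1 was higher (263 and 258 against 372 and 386). The median change of all genes on log2(FPKM + 1) was -0.14 there. The G2 and mitosis genes moved down with XRCC4 loss, from 4.41 and 4.92 to 2.45 and 2.46 log2 CPM at 5 days and from 5.24 and 5.2 to 4.72 and 4.65 at 3 days, and their part was not tested.

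FADS1 and FADS2, neighbouring desaturase genes of polyunsaturated fatty acid synthesis, went opposite ways with XRCC4 loss. FADS2 (ENSG00000134824) measured 180 and 184 CPM in WT cells at 3 days and 37.7 and 39.5 in XRCC4 KO cells, a change of -2.23 ± 0.06 that was the largest fall of any member there (edgeR adjusted p = 1.55e-20). FADS1 (ENSG00000149485) measured 79.1 and 77.1 against 167 and 163 CPM, a rise of 1.08 ± 0.05 (edgeR adjusted p = 3.7e-16). Neither gene's groups overlapped. Both genes are deposited with 1 interval, hg19 chr11:61447905-61634826, so how reads were divided between them is uncertain.

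FADS2 was low in the cGAS KO, STING KO and XRCC4 KO lines alike. At 5 days it measured 105 and 87.7 CPM in WT, 27.9 and 24.3 in cGAS KO, 51.4 and 31.6 in STING KO and 29.4 and 31.2 in XRCC4 KO cells. The changes were -1.88 ± 0.34, -1.22 ± 0.34 and -1.67 ± 0.34 (edgeR adjusted p = 0.00824, 0.0388 and 0.00772), all against the same WT libraries, and each was lost when some single library was left out. DKO cells measured 59.1 and 59.9 CPM, below p53 KO cells (132 and 129, -1.13 ± 0.06) and above XRCC4 KO cells. FADS1 in DKO cells, at 115 and 115 CPM, was above p53 KO cells at 67.9 and 65.7 (0.78 ± 0.05). Each of these lines was grown from a single cell, so a gene's loss and a difference between lines cannot be told apart. At 5 days the labels also name DMSO for the WT cells alone.

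**Figure D3:**
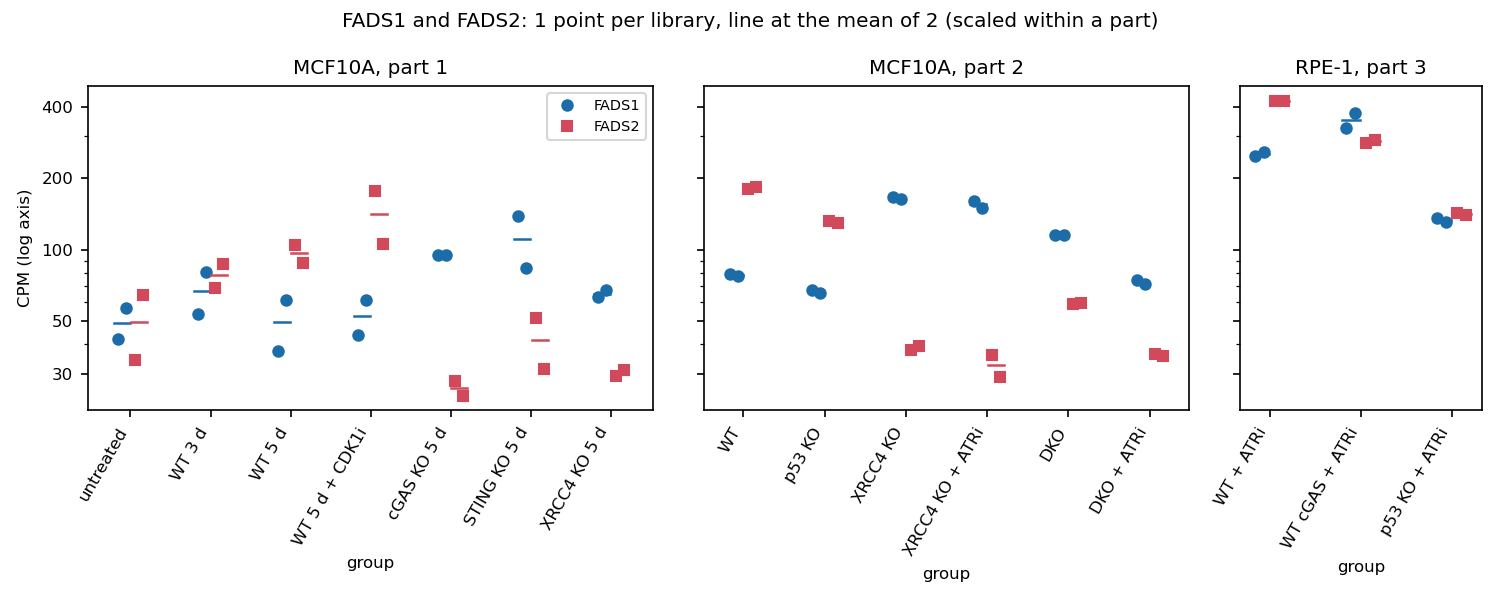
CPM of FADS1 and FADS2 (y axes, log scale) in each library, by group and experiment (x axis); each point is 1 library, and levels are not compared between the genes. FADS2 lies at 24.3 to 51.4 in the knockout lines at 5 days and at 87.7 and 105 in WT cells.

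Radiation alone moved few members at 3 days. In WT cells, 0 of 36 members passed the test against untreated cells in edgeR, beside 6.52% of all genes called in either direction, with 4 higher and 1 lower at an unadjusted p under 0.05 and 2 called by DESeq2. At 5 days, 5 rose (13.9%) and 2 fell (5.56%), beside 15.1% and 14.3% of all genes. The share depended on the fit: DESeq2 called 16 members, 14 higher and 2 lower (44.4%, beside 27.7% of all genes). The median member change was 0.32 at 3 days and 0.54 at 5 days, and 30 of 36 changes were positive at each time.

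SC5D, a sterol desaturase, measured 26 and 34.4 CPM in untreated cells and 64.5 and 56.2 at 5 days (1.00 ± 0.21, edgeR adjusted p = 0.00749). ABCA1, near the floor of the counts in these libraries, measured 0.366 and 0.809 against 1.65 and 1.96 CPM (1.69 ± 0.43, edgeR adjusted p = 0.0161). ABCG1 went the opposite way, from 74.4 and 31.4 to 17.7 and 20.1 CPM (-1.49 ± 0.38, edgeR adjusted p = 0.0164). No library of 1 group overlapped the other for these 3 genes, but the untreated libraries of ABCG1 stood far apart. STARD4 (22.3 and 37.1 against 73 and 54.1 CPM, 1.11 ± 0.31), ACLY (1.05 ± 0.34) and HSD17B7 (0.83 ± 0.22) rose, and ACSS2, which makes acetyl-CoA from acetate, fell from 130 and 142 to 84.6 and 67.8 CPM (-0.84 ± 0.2). None of the 7 kept its call in every fit that left out 1 library. Without untreated replicate 1 or 2, 2 and 12 members were called (5.56% and 33.3%, beside 20% and 23.4% of all genes), and without the 5-day replicate 1 or 2, 1 and 4 (beside 10.3% and 20.2%). At 3 days, 1 member was called without untreated replicate 2.

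The untreated libraries differed in the mevalonate genes, whose mean was 5.05 and 5.82 log2 CPM, and in the G2 and mitosis genes, at 3.18 and 4.94. HMGCS1, for example, measured 33.6 and 79 CPM untreated, 67.3 and 147 at 3 days and 176 and 168 at 5 days, and it did not pass the test. Between 3 and 5 days 0 members were called in edgeR or DESeq2, beside 0.263% of all genes, and 1 was higher at an unadjusted p under 0.05.

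Among irradiated cells at 5 days, the cGAS KO and STING KO lines had higher late cholesterol enzymes than WT cells. In cGAS KO, 7 of 36 members rose (19.4%) and 2 fell (5.56%), beside 6.65% and 6.88% of all genes. In STING KO, 10 rose (27.8%) and 2 fell (5.56%), beside 7.43% and 7.73%. In each, 5 of 11 squalene-to-cholesterol genes rose. Median changes were 0.6 and 0.64. These comparisons and that of XRCC4 KO share the WT libraries, so their values are given side by side and not as independent repeats. The labels name DMSO for these WT libraries and not for the knockouts, so a knockout and DMSO cannot be told apart.

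CYP51A1, the lanosterol demethylase (ENSG00000001630, hg19 chr7:91741465-91810039), measured 150 and 121 CPM in WT, 306 and 289 in cGAS KO, 317 and 261 in STING KO and 252 and 229 in XRCC4 KO cells. Its changes in cGAS KO and STING KO were 1.13 ± 0.19 and 1.09 ± 0.19 (edgeR adjusted p = 0.00402 and 0.00439). DHCR7 measured 144 and 140 CPM in WT, 341 and 302 in cGAS KO and 383 and 269 in STING KO cells (1.18 ± 0.28 and 1.2 ± 0.28). Every knockout library was above every WT library for both genes. SCD measured 977 and 833 CPM in WT, 2020 and 1860 in cGAS KO and 2140 and 1690 in STING KO cells (1.1 ± 0.29 and 1.08 ± 0.29). SCAP fell in both, by 0.32 ± 0.09 and 0.37 ± 0.09, but a fit with a replicate block lost the call in cGAS KO (edgeR adjusted p = 0.052). In cGAS KO, FDFT1 (1.06 ± 0.22) and SQLE (0.98 ± 0.26) rose as well, and in STING KO, ACAT2 (1.44 ± 0.37) and FADS1 (1.17 ± 0.31).

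CYP51A1 alone of the 7 members named in each of these comparisons kept its call when any single library was left out. For cGAS KO, the median member change was 0.66 and 0.6 without WT replicate 1 or 2. It was 0.57 and 0.68 without cGAS KO replicate 1 or 2. For STING KO these medians were 0.69 and 0.61 for WT, and 0.37 and 0.84 for STING KO. Fewer members were called in each of these fits, and so was a smaller share of all genes. After centring of the FPKM, STING KO had 5 higher and 0 lower, beside 6.75% of all genes called. Interferon-stimulated genes averaged 8.71 and 6.74 log2 CPM in WT, 5.53 and 5.41 in cGAS KO and 4.59 and 3.82 in STING KO cells, and their part in the differences was not tested.

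With CDK1i during irradiation, the share of members called was near that of all genes, 4 of 36 (11.1%) beside 12.1%. By direction, 3 rose (8.33%) and 1, ABCA1, fell (2.78%), beside 4.73% and 7.37% of all genes. ABCA1 (ENSG00000165029, hg19 chr9:107543283-107691173) measured 1.65 and 1.96 CPM without and 0.187 and 0.482 with CDK1i (-2.43 ± 0.45, edgeR adjusted p = 0.00983), and the call held whichever library was left out. ABCA1 was near the floor of the counts in these libraries. MVK, the mevalonate kinase, measured 34.3 and 28.2 against 62 and 45.6 CPM (0.79 ± 0.17), LPIN1 114 and 68.4 against 159 and 182 (0.91 ± 0.2), and PMVK rose by 0.43 ± 0.11. Libraries with and without CDK1i did not overlap for ABCA1, MVK and LPIN1. The 2 CDK1i libraries differed for HMGCS1 (369 and 150 CPM) and for the mevalonate genes together (7.26 and 6.49 log2 CPM). The median member change was 0.46 with all libraries, 0.42 without WT replicate 2 and 0.14 without CDK1i replicate 1. Fewer members were called in both of these fits, but the share of all genes called was smaller only without WT replicate 2. limma on FPKM gave 1 higher and 0 lower, beside 4.02% of all genes called on log2(FPKM + 1).

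**Figure D4:**
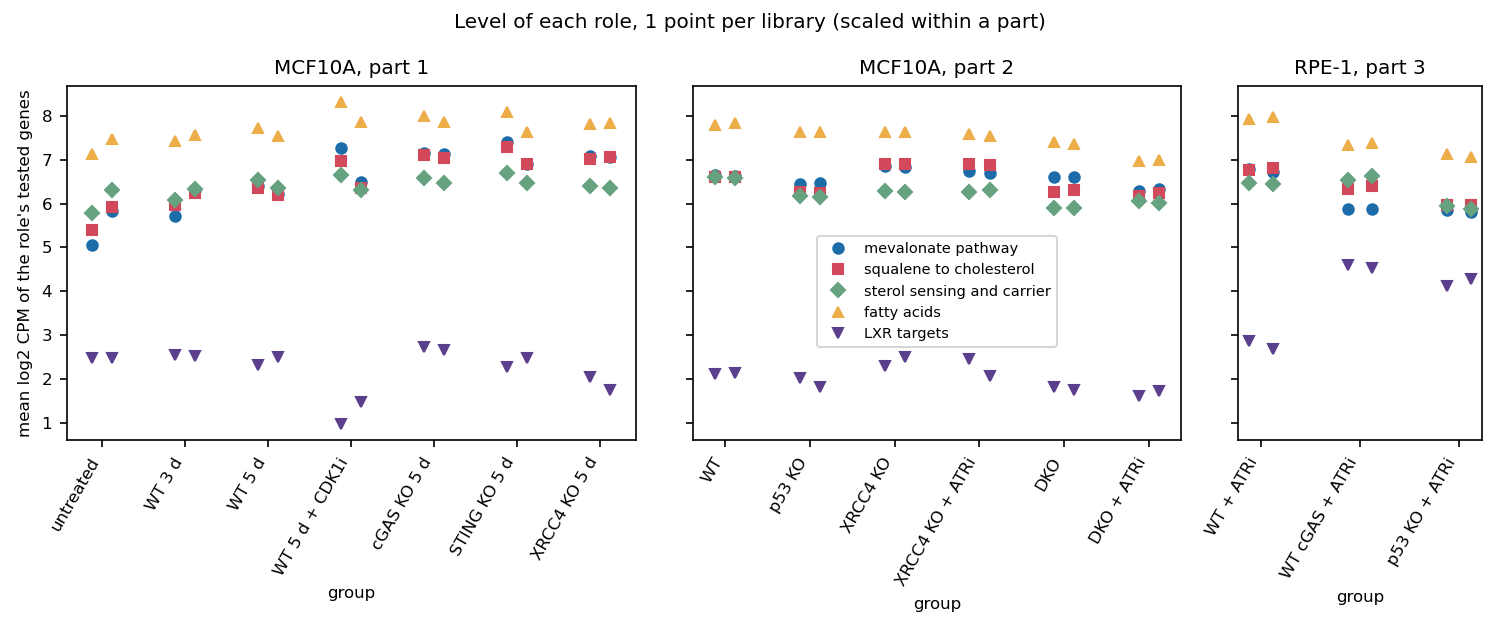
Mean log2 CPM (y axis) of the members of each role (coloured markers) by group (x axis), in 3 panels, 1 per experiment; each point is 1 library. The mevalonate points are at 5.05 and 5.82 in untreated MCF10A and at 7.26 and 6.49 with CDK1i. In RPE-1 they are at 6.79 and 6.72 in WT and at 5.85 and 5.8 in p53 KO.

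ATRi was added in 2 MCF10A lines, and the response of many members differed between them. In XRCC4 KO cells, 3 of 36 members rose (8.33%) and 10 fell (27.8%) with ATRi, beside 6.67% and 10.3% of all genes, and the median was -0.04. In DKO cells 9 rose (25%) and 19 fell (52.8%), beside 26.1% and 32.4%, and the median was -0.17. The difference between the responses, tested as an interaction, was past the threshold for 7 members in the positive and 19 in the negative direction (19.4% and 52.8%), beside 13% and 21% of all genes. limma on log2(FPKM + 1) gave 1 higher and 2 lower in XRCC4 KO cells and 12 and 12 in DKO cells (9 and 15 after centring), and 6 positive and 2 negative interactions (3 and 10 after centring).

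Of 9 fatty acid genes, 7 had negative and 2 positive interactions. FASN measured 857 and 836 CPM in XRCC4 KO cells and 915 and 857 with ATRi, but 497 and 478 in DKO cells and 308 and 295 with ATRi, an interaction of -0.76 ± 0.07 (edgeR adjusted p = 7.7e-09). ACACA, the acetyl-CoA carboxylase, measured 289 and 293 against 273 and 256 in XRCC4 KO cells and 253 and 240 against 135 and 139 in DKO cells (-0.71 ± 0.06, edgeR adjusted p = 2.12e-09). With ATRi, both genes were lower in both DKO libraries, whereas FASN in XRCC4 KO libraries with ATRi was at or above its level without. SCD (-0.45 ± 0.05), FADS1 (-0.57 ± 0.07) and SREBF1 (-0.41 ± 0.07) had interactions of the same sign. ELOVL6 gave -0.62 ± 0.08 on counts, but 0.68 on log2(FPKM + 1) and 0.52 after centring, so its direction is unsettled. In the other direction, LPIN1 measured 91.5 and 87.4 against 75.2 and 78.5 CPM in XRCC4 KO cells and 65.2 and 61.1 against 95 and 97.2 in DKO cells (0.83 ± 0.08, edgeR adjusted p = 3.94e-09), and INSIG2 (0.53 ± 0.12) and HMGCS1 (0.36 ± 0.07) were positive too. MYLIP (0.85 ± 0.29) and TM7SF2 (0.63 ± 0.18) were positive, but MYLIP was lost without XRCC4 KO replicate 1 or 2, XRCC4 KO with ATRi replicate 2, DKO replicate 1 or DKO with ATRi replicate 1, and TM7SF2 without DKO replicate 1.

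Within XRCC4 KO cells, ACAT2 fell with ATRi from 91 and 89.8 to 59.6 and 58 CPM (-0.62 ± 0.05), HMGCS1 by 0.27 ± 0.05, FDPS by 0.25 ± 0.04 and ABCG1 by 0.39 ± 0.09, while SQLE rose by 0.18 ± 0.04. Without XRCC4 KO replicate 1 or 2, the median member change was -0.03 and -0.06. Fewer members and a smaller share of all genes were called in both fits. TM7SF2 (0.3 ± 0.11), SREBF1 (0.19 ± 0.05) and HSD17B7 (-0.36 ± 0.1) were called with all libraries and lost in at least 3 of the fits that left 1 out. Within DKO cells ACAT2 fell from 87 and 84.4 to 41.1 and 41.4 CPM (-1.06 ± 0.05), FADS2 by 0.72 ± 0.07 and SCD by 0.39 ± 0.04, while TM7SF2 (0.94 ± 0.14), LPIN1 (0.61 ± 0.05), STARD4 (0.59 ± 0.1), ACSS2 (0.41 ± 0.05) and INSIG1 (0.21 ± 0.05) rose. ELOVL6 gave -0.77 ± 0.06 on counts and 0.58 on log2(FPKM + 1). Interferon-stimulated genes moved from 2.78 and 2.85 to 7.62 and 7.59 log2 CPM in DKO cells and from 1.75 and 2.06 to 3.11 and 3.45 in XRCC4 KO cells with ATRi, and their part was not tested.

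XRCC4 loss was also measured in cells without p53. In DKO against p53 KO cells, 7 of 36 members rose (19.4%) and 16 fell (44.4%), beside 24.6% and 25% of all genes, and centring of the FPKM gave 6 and 7. ACAT2 (0.89 ± 0.05), FADS1 and CYP51A1 (0.33 ± 0.05) rose, as with p53 present. SCD, which rose with p53 present, fell from 775 and 787 to 574 and 544 CPM (-0.48 ± 0.04). HMGCS1 fell here, from 212 and 232 to 159 and 153 CPM (-0.51 ± 0.04), as it did with p53 present. The sensors SREBF1 (-0.51 ± 0.05), INSIG2 (-0.51 ± 0.08) and STARD4 (-0.56 ± 0.1) fell, and SREBF2 did so by -0.19 ± 0.05 unless p53 KO replicate 1 was left out (-0.13). INSIG1 rose by 0.47 ± 0.05.

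The interaction of XRCC4 and p53 loss was past the threshold for 3 members in the positive and 14 in the negative direction (8.33% and 38.9%), beside 20.9% and 22.8% of all genes. limma on log2(FPKM + 1) gave 5 and 6. INSIG1 fell with XRCC4 loss in cells with p53 (66.3 and 63.2 to 44.6 and 43.3 CPM) and rose in cells without it (52.4 and 53.9 to 73.7 and 73.7), an interaction of 1.03 ± 0.08 (edgeR adjusted p = 4.55e-11). FDFT1 rose with p53 (318 and 322 to 527 and 541) and measured 288 and 295 against 299 and 296 without it, an interaction of -0.71 ± 0.05 (edgeR adjusted p = 6.56e-11). FDFT1 groups stood far apart where p53 was present and nearly touched where it was not. SQLE (-0.76 ± 0.06), SCD (-0.73 ± 0.05), LPIN1 (-0.71 ± 0.08), SREBF2 (-0.28 ± 0.07) and ABCG1 (-1.34 ± 0.17) had negative interactions, and FADS2 (1.1 ± 0.09) and IDI1 (0.3 ± 0.08) positive ones.

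RPE-1 WT cGAS cells, which the label separates from WT and in which MB21D1 counts were high, also had lower synthesis genes than WT cells. Of 35 members, 25 fell (71.4%) and 7 rose (20%), beside 30% and 29.8% of all genes, and the median was -0.53. All 7 mevalonate genes fell, with 9 of 11 squalene-to-cholesterol genes and 8 of 9 fatty acid genes. On log2(FPKM + 1) the median member change was -0.32, while that of all genes was 0.16. ACAT2 measured 145 and 139 CPM in WT and 41 and 37.2 in WT cGAS cells (-1.86 ± 0.06, edgeR adjusted p = 5.24e-14), and MVK 44.1 and 38.7 against 19.5 and 18 (-1.14 ± 0.08). ELOVL6 (-1.26 ± 0.07), MVD, the mevalonate diphosphate decarboxylase (-1.01 ± 0.07), ACACA (-0.99 ± 0.05), SCD (-0.81 ± 0.04) and SREBF2 (-0.42 ± 0.04) fell as well.

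LSS, the lanosterol synthase, broke from its neighbours. It measured 325 and 324 CPM in WT, 505 and 542 in WT cGAS and 209 and 226 in p53 KO cells, so the 3 groups did not overlap in CPM (0.69 ± 0.05 in WT cGAS against WT, edgeR adjusted p = 2.46e-10). On FPKM it measured 82.8 and 98 in WT, 165 and 193 in WT cGAS and 94.6 and 93.7 in p53 KO cells. WT and p53 KO thus overlapped on FPKM, and WT cGAS was above both. SREBF1 rose from 33.9 and 36.2 to 53.6 and 52.6 CPM (0.6 ± 0.06) and FADS1 from 248 and 258 to 325 and 377 (0.47 ± 0.06). INSIG1 rose by 0.17 ± 0.06, a call lost without WT replicate 2 or WT cGAS replicate 2. In WT cGAS cells interferon-stimulated genes averaged 8.69 and 8.44 log2 CPM (3.37 and 3.7 in WT) and G2 and mitosis genes 2.09 and 1.79 (4.01 and 3.95 in WT). Their part was not tested.

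The p53 KO and WT cGAS comparisons share the RPE-1 WT libraries, and the 2 lines were compared directly. In p53 KO against WT cGAS cells 7 of 35 members rose (20%) and 22 fell (62.9%), beside 31.8% and 32.8% of all genes. limma on log2(FPKM + 1) gave 3 higher and 17 lower, and 1 and 20 after centring. FADS1 (-1.39 ± 0.06), LSS (-1.27 ± 0.05), STARD4 (-1.25 ± 0.07), FADS2 (-1.01 ± 0.04), SREBF1 (-0.62), INSIG1 (-0.6), SREBF2 (-0.59) and SCD (-0.17) were lower in p53 KO. ELOVL6 (0.56 ± 0.07), ACAT2 (0.47 ± 0.07), ACACA (0.36 ± 0.05) and SC5D (0.27 ± 0.06) were higher.

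The LXR targets did not move as a unit. In RPE-1, ABCA1 measured 46.9 and 46.5 CPM in WT, 64.5 and 62.7 in p53 KO and 162 and 168 in WT cGAS cells, rises of 0.45 ± 0.06 and 1.82 ± 0.05 against WT (edgeR adjusted p = 1.27e-06 and 1.42e-15). MYLIP (ENSG00000007944, hg19 chr6:16129356-16148479) measured 1 and 0.762, 4.56 and 5.96, and 3.45 and 3.03 CPM in the same order (2.58 ± 0.27 and 1.88 ± 0.31). Both were lowest in WT, and ABCA1 was highest in WT cGAS while MYLIP was highest in p53 KO cells. The direct difference of p53 KO and WT cGAS was -1.38 ± 0.05 for ABCA1 and 0.7 ± 0.19 for MYLIP, the latter lost without p53 KO replicate 2.

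In MCF10A, ABCG1 (ENSG00000160179, hg19 chr21:43619799-43717354) was lowest in DKO cells with ATRi. It measured 15.6 and 16.8 CPM in WT, 10.3 and 8.93 in p53 KO, 23.9 and 24.7 in XRCC4 KO, 6.22 and 5.24 in DKO and 1.7 and 2.35 in DKO with ATRi. The last was 1.48 ± 0.19 log2 units below DKO (-1.48, edgeR adjusted p = 2.42e-07) and 3.17 ± 0.15 below XRCC4 KO with ATRi (-3.17). MYLIP moved opposite to it, from 3.03 and 3.84 in DKO to 8.83 and 8.36 CPM in DKO with ATRi (1.32 ± 0.15, edgeR adjusted p = 2.85e-08). DKO with ATRi thus held the highest MYLIP and the lowest ABCG1 of the 6 groups.

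**Figure D5:**
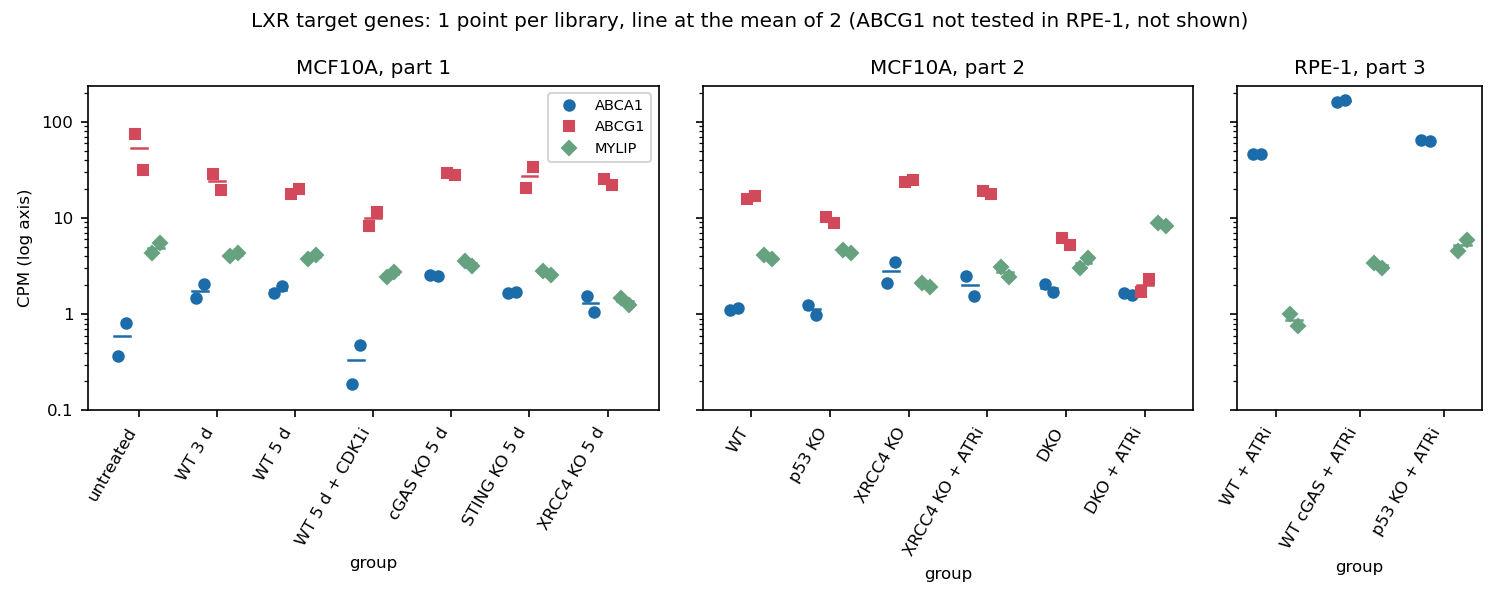
CPM of ABCA1, ABCG1 and MYLIP (y axes, log scale) in each library by group (x axis); each point is 1 library, ABCG1 is not shown in RPE-1, and levels are not compared between genes. ABCG1 falls to 1.7 and 2.35 in DKO cells with ATRi, where MYLIP is at 8.83 and 8.36.

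Of 73 further lipid genes on a fixed list (isoprenoid branches, SREBP processing, sterol transport, LXR and partners, other fatty acid genes, glycerolipids and fatty acid oxidation), 70 were tested in the second MCF10A experiment and in RPE-1 and 69 in the first. With p53 loss in MCF10A 14 rose and 29 fell (20% and 41.4%, beside 25.9% and 27% of all genes). In RPE-1 14 rose and 35 fell (20% and 50%, beside 34.2% and 32.5%), and in DKO against XRCC4 KO cells with ATRi 17 rose and 41 fell (24.3% and 58.6%, beside 35.7% and 36.1%). With XRCC4 loss 28 rose and 21 fell at 3 days (40% and 30%, beside 28.6% and 27.5%) and 20 rose and 8 fell at 5 days (29% and 11.6%, beside 12.4% and 12.4%). In cGAS KO 8 rose and 5 fell (11.6% and 7.25%, beside 6.65% and 6.88%), and in STING KO 11 rose and 4 fell (15.9% and 5.8%, beside 7.43% and 7.73%). Shares were near those of all genes in RPE-1 WT cGAS, where 22 rose and 20 fell (31.4% and 28.6%, beside 29.8% and 30%), and in WT cells 5 days after radiation 7 rose and 13 fell (10.1% and 18.8%, beside 15.1% and 14.3%).

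Named by size, these genes included the mitochondrial carnitine palmitoyltransferase CPT2, which fell in MCF10A p53 KO (-1.16 ± 0.06), and the sterol-binding membrane protein TMEM97, which rose there (1.01 ± 0.08). The acyl-CoA synthetase ACSL5 fell in XRCC4 KO at 3 days (-2.95 ± 0.23) and rose in RPE-1 p53 KO (2.16 ± 0.17), and ACSL4 fell with XRCC4 loss (-1.54 ± 0.06). NR1H3, which encodes LXR alpha, fell 5 days after radiation (-2.06 ± 0.32), when ABCG1 fell and ABCA1, near the floor of the counts, rose. The lipoprotein receptor SCARB1 fell in DKO against XRCC4 KO cells with ATRi (-1.61 ± 0.05). In RPE-1 WT cGAS cells the elongase ELOVL7 (4.43 ± 0.23) and CH25H, which makes an oxysterol (3.59 ± 0.53), rose.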

How the data were processed

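RNA was poly-A selected and sequenced with Illumina protocols, per the labels' protocols. The deposited tables hold estimated counts per gene and FPKM (fragments scaled to gene length and library size). The authors' tools were bcl2fastq, FastQC, STAR, Cuffnorm and DESeq2 with build hg19, per the submitters' processing notes, and the sources do not say which tool made which table. Of the deposited estimated counts, 96 to 97.3% per library were whole, and they were rounded. Library totals ranged from 5590061 to 18585999.

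Each of the 3 experiments was fitted on its own with edgeR 4.0.16 in R 4.3.3 (TMM scaling, edgeR's expression filter by group, robust quasi-likelihood F test, two-sided, group as the only term), and p-values were adjusted (Benjamini-Hochberg) over the 15190, 16632 and 15469 genes tested. SE was the log2 fold change divided by the square root of F. The biological coefficient of variation was 0.187 in the first experiment and 0.0361 and 0.0345 in the others. Plots of log2 CPM used a prior count of 2. The fit was tested on data simulated with the library sizes and spread of the second MCF10A experiment alone. That test does not cover the more variable first experiment or RPE-1. Alternatives were DESeq2 1.42.0, its size factors in edgeR, no filter on low counts, only the groups compared, a replicate block, each library left out, and limma 3.58.1 on log2(FPKM + 1) and log2(FPKM + 0.1). Median-centred log2(FPKM + 1) was added after seeing the data, because the deposited FPKM were not scaled as TMM does: the median change of all genes on log2(FPKM + 1) was up to 0.34 away from 0.

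In each comparison, up to 5 called members per direction with the largest changes were given in full, with INSIG1, SREBF1, SREBF2, SCD and ABCA1 where a result turns on them, and up to 2 further lipid genes per direction with a mean of at least 1 CPM. Members and lists were chosen with earlier results of these data known. Figures were drawn with matplotlib 3.10.9.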

Additional observations from a re-analysis of the deposited data

Results flagged for a closer look

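The responses to ATRi with and without p53 (DKO and XRCC4 KO cells) differed by the interaction test in 7 members with a positive and 19 with a negative value. These were 19.4% and 52.8% of members, beside 13% and 21% of all genes. limma on log2(FPKM + 1) gave 6 positive and 2 negative, and 3 and 10 after centring. Positive log2 interactions were measured for MYLIP (0.85), LPIN1 (0.83), TM7SF2 (0.63), INSIG2 (0.53) and HMGCS1 (0.36), and negative ones for ABCG1 (-1.09), FASN (-0.76), ACACA (-0.71), ELOVL6 (-0.62), FADS1 (-0.57), SCD (-0.45) and SREBF1 (-0.41). ELOVL6 had the opposite sign on FPKM.

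The responses to XRCC4 loss with and without p53 differed in 3 members with a positive and 14 with a negative interaction. These were 8.33% and 38.9% of members, beside 20.9% and 22.8% of all genes. In either direction, 47.2% of members were called, beside 43.7% of all genes. limma on log2(FPKM + 1) gave 5 positive and 6 negative. FADS2 (1.1), INSIG1 (1.03) and IDI1 (0.3) were positive. ABCG1 (-1.34), SQLE (-0.76), SCD (-0.73), FDFT1 (-0.71), LPIN1 (-0.71) and SREBF2 (-0.28) were negative.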

How the results depend on the processing

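The number of members called in the first MCF10A experiment depended most on the processing. The share of all genes called in the same fit is given in parentheses. DESeq2 called 2 members at 3 days (8.98%) and 16 at 5 days after radiation (27.7%), 7 with CDK1i (14.5%) and 14 in cGAS KO (14.4%). Without a filter on low counts 4 were called at 5 days (11.4%), 4 in cGAS KO (4.97%), 4 in STING KO (5.57%) and 8 in XRCC4 KO (9.15%). With only the groups compared in the fit these were 3 at 5 days (7.81%), 22 in cGAS KO (21.8%), 7 in STING KO (6.03%) and 24 in XRCC4 KO (34.4%). That fit called no gene at all with CDK1i (0 members), so it says nothing about the members there. On log2(FPKM + 1), limma called 1 with CDK1i (4.02%), 4 in cGAS KO (4.88%), 4 in STING KO (6.26%), 3 in XRCC4 KO at 5 days (14.8%), 17 in p53 KO (38.1%), 17 in XRCC4 KO at 3 days (40.9%), 3 in XRCC4 KO with ATRi (4.86%), 8 by the ATRi interaction (16.7%) and 11 by the XRCC4 interaction (25.2%). On log2(FPKM + 0.1) these counts were the same except for the XRCC4 interaction, at 12, and 1 was called at 3 days after radiation (2.86%) and 19 in RPE-1 p53 KO against WT cGAS (44.1%). Centred FPKM gave 1 with CDK1i (4.42%), 4 in cGAS KO (5.29%), 5 in STING KO (6.75%), 17 in p53 KO (35.5%), 3 in XRCC4 KO with ATRi (4.68%), 13 in DKO against p53 KO (31.7%), 13 by the ATRi interaction (16%) and 11 by the XRCC4 interaction (24.2%). The cause was not tested. On log2(FPKM + 1) the median of all genes moved by over 0.1 in 8 comparisons, among them by 0.34 in DKO against XRCC4 KO with ATRi, 0.26 in RPE-1 p53 KO, 0.2 in DKO against XRCC4 KO and -0.21 in XRCC4 KO at 5 days. Relative to it the member medians there were -0.49, -0.73, -0.28 and 0.4.

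Directions reversed on FPKM for SREBF1 in DKO against XRCC4 KO (0.17 and 0.17 with either pseudocount), for ELOVL6 with ATRi in DKO (0.58, 0.59 and 0.42 centred) and in the ATRi interaction (0.68, 0.7 and 0.52 centred), and on centred FPKM alone for LPIN1 in p53 KO (-0.12) and ELOVL6 in DKO against XRCC4 KO (-0.03). Of 171 calls of named members, 164 held in DESeq2, 170 with DESeq2's size factors, 151 without a filter, 159 with only the groups compared, 121 and 120 on FPKM and 125 after centring.

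With 1 library left out in turn, the lowest and highest counts were 0 and 1 at 3 days, 1 and 12 at 5 days, 0 and 0 between them, 1 and 3 with CDK1i, 1 and 4 in cGAS KO, 1 and 7 in STING KO, 3 and 8 in XRCC4 KO at 5 days, 24 and 27 in p53 KO, 24 and 25 in XRCC4 KO at 3 days, 8 and 11 with ATRi in XRCC4 KO, 30 and 31 in DKO against XRCC4 KO, 21 and 23 in DKO against p53 KO, 26 and 27 with ATRi in DKO, 32 and 33 in DKO against XRCC4 KO with ATRi, 21 and 25 and 16 and 18 for the ATRi and XRCC4 interactions, and 33 and 34, 31 and 32, and 27 and 30 for p53 KO, WT cGAS and their difference in RPE-1. The lone library of a group is assumed to vary like the others. For cGAS KO, STING KO and XRCC4 KO at 5 days, the share of all genes called was also smaller in each of these fits.

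Same-numbered deviations correlated at -0.05 to 0.06 over 15 pairs of groups in the second experiment and -0.02 to 0.03 over 3 in RPE-1. Replicate numbers therefore did not pair libraries there. In the first experiment they correlated at -0.27 to 0.44 over 21 pairs (7 over 0.1), so pairing of some groups is not settled. A replicate block gave 9 members in cGAS KO, 11 in STING KO, 12 with ATRi in XRCC4 KO and 25 by the ATRi interaction, lost SCAP in cGAS KO (-0.32) and TM7SF2 with ATRi in XRCC4 KO (0.3), and changed no other named call. With 2 libraries a group, the number of libraries limits the precision of every comparison.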
